A study of Mus musculus with 12 samples.

Results

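Rasd1, Chdh, Adgrb2, Cstad, Begain, B4galnt2 and Dok1 are 7 genes whose transcripts differed in gonadal white fat of mice lacking both Gadd45a and Ing1, with a difference of the same sign in mice lacking Ing1 alone. They were chosen from measured values: of 31453 genes or unnamed probes tested, 51 passed in the double knockout against wild type. Leaving out clones and predicted genes, 30 of these were named genes, and 29 of the 30 had the same sign in the Ing1 knockout. The 7 come from these 29 by a further choice that is not stated, so counts over them describe these 7 and not the 29. They are represented by 10 probes, of which Chdh has 3, Adgrb2 has 2 and the others have 1 each. The groups are wild type (WT), Gadd45a-/- (Gadd45a-KO), Ing1-/- (Ing1-KO) and Gadd45a-/-;Ing1-/- (DKO), all males of strain C57BL/6N aged 59 to 67 days and obtained by crossing the 2 knockout lines. Each group has 3 one-colour arrays with RNA of 3 mice pooled on each, 9 mice per genotype, and variation between single mice was not measured.

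Ing1 belongs to a family of chromatin proteins whose zinc finger recognises trimethylated lysine 4 of histone H3, a mark of active promoters, and it is found in complexes with histone deacetylases. Gadd45a is a small nuclear protein induced by stress and known for a part in DNA repair and active DNA demethylation. The 7 genes do not form a known pathway: Chdh is a mitochondrial enzyme of choline breakdown, Rasd1 a small GTPase induced by glucocorticoids, Adgrb2 an adhesion receptor, B4galnt2 a sugar transferase, and Dok1, Begain and Cstad are intracellular proteins described mainly in blood cells, synapses and T cells.

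On the arrays, 58.2% to 68.1% of 59305 spots were well above background, and the median processed signal ran from 39.3 intensity units in WT replicate 2 to 68.8 in Ing1-KO replicate 1. Precision is limited by the number of arrays. The Ing1 probes bear out the Ing1 labels: the brightest one lay between 12.37 and 12.78 on the log2 scale in the 6 arrays labelled WT or Gadd45a-KO and between 9.13 and 9.60 in the 6 labelled Ing1-KO or DKO. The single Gadd45a probe was higher, not lower, in the arrays labelled as lacking that gene, with means of 10.17 in Gadd45a-KO and 10.61 in DKO against 9.51 in WT and 9.20 in Ing1-KO. Its position and that of the deleted part are not given in the sources used here, so the probe may lie outside the deletion. Its signal set the arrays apart by label, between 9.06 and 9.80 in WT and Ing1-KO and between 10.05 and 10.62 in the others. It does not show loss of the gene, and each direction drawn from the Gadd45a labels below is that of the libraries as labelled. Skeletal muscle transcripts set Ing1-KO replicate 1, DKO replicate 1 and Gadd45a-KO replicate 1 apart, at mean log2 signals of 9.54, 8.33 and 7.25 over 13 measured markers. The tests were also run without these 3 arrays, a choice made after the data were seen; Ing1 itself was then the only gene called in any comparison, and the values are given beside the results.

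The sequences just upstream of the genes are shown because both knocked-out proteins are known to act at promoters, and they show how far these genes differ in CG content. RefSeq windows (GRCm38.p6) of 250 bases that end just before an annotated start were found for 5 of the 7 genes, with 11 windows in all, and the first window of each gene follows in lower case with every CG in capitals.
Chdh, chr14:30008750-30008999, plus strand: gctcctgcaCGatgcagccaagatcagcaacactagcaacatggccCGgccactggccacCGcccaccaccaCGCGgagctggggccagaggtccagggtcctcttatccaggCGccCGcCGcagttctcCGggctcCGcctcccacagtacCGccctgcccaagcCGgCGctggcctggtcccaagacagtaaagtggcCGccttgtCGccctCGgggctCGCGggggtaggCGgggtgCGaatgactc
Adgrb2, chr4:129984620-129984869, plus strand: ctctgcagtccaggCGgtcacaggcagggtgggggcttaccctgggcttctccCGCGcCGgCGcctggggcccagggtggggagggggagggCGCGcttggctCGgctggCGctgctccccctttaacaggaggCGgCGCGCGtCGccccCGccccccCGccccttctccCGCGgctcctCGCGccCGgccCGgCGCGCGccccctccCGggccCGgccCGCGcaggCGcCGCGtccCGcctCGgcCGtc
Cstad, chr2:30594794-30595043, plus strand: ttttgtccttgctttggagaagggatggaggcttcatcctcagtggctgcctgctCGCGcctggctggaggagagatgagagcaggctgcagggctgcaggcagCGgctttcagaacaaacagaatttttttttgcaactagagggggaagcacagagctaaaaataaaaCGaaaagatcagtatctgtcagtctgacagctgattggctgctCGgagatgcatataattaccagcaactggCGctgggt
Begain, chr12:109068243-109068492, minus strand: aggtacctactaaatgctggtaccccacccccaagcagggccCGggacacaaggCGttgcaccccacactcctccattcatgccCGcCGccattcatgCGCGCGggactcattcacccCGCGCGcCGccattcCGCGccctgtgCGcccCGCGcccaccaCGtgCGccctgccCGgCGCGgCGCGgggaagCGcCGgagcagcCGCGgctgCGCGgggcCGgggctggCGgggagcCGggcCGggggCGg
B4galnt2, chr11:95914872-95915121, minus strand: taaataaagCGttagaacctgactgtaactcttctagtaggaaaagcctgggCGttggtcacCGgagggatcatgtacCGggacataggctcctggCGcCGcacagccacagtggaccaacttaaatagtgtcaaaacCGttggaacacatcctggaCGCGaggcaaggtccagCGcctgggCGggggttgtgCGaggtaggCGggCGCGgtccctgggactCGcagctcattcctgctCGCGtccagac
Rasd1 and Dok1 are named only. The windows held 20 CG in Chdh, 35 in Adgrb2, 6 in Cstad, 34 in Begain and 18 in B4galnt2, where the median over 32851 windows of the same length was 6. These counts depend on the annotated start taken: the other 2 windows of Chdh held 2 CG each, and the other 4 of Begain 22 to 37. In the printed windows Adgrb2 and Begain carried more CG than 97.0% and 96.5% of all windows, while Cstad held more than 49.6% of them. The letters GGGCGG, searched on both strands and able to overlap the counted CG, occurred in the printed windows of Chdh (2), Adgrb2 (2), Begain (1) and B4galnt2 (1), and in 32.7% of all windows. CCAAT and TTGCNNAA each occurred 1 time, in Cstad, against 33.8% and 9.56% of all windows, and TATAAA, present in 12.4% of all windows, in none of the 5. These are matches of letters, not sites.

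Rasd1 and Chdh were higher without Ing1. Values are normalized log2 signals, that is, log2 processed signals shifted so that all arrays share their 75th percentile; they are listed by replicate 1, 2 and 3, and they compare arrays for 1 probe, not probes with each other. Rasd1 read 9.93, 9.85 and 10.14 in WT and 9.62, 10.26 and 9.57 in Gadd45a-KO, against 10.90, 10.80 and 10.37 in Ing1-KO and 11.12, 11.42 and 11.23 in DKO. All 6 arrays lacking Ing1 lay above all 6 with it, but by only 0.11 at the nearest pair, and the 3 DKO arrays lay above the 3 Ing1-KO arrays as well. Rasd1, also called Dexras1, has been linked in mice to glucocorticoid-driven formation of fat cells. The signal was 1.64-fold higher in Ing1-KO than in WT, a log2 difference of 0.72 ± 0.19 (SE, n = 3 arrays per group), and 2.44-fold higher in DKO, at 1.29 ± 0.19.

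Chdh encodes choline dehydrogenase, which starts the oxidation of choline to betaine, a methyl donor for homocysteine. On its brightest probe it read 8.93, 9.02 and 8.99 in WT and 8.84, 9.18 and 9.13 in Gadd45a-KO, against 9.94, 9.53 and 9.69 in Ing1-KO and 10.28, 9.92 and 9.70 in DKO. The 6 arrays lacking Ing1 lay above the other 6, the WT arrays were tightly grouped, and Ing1-KO and DKO overlapped. The difference from WT was 0.74 ± 0.16 on the log2 scale in Ing1-KO, or 1.67-fold, and 0.99 ± 0.16 in DKO, or 1.99-fold. The replicate 1 arrays were the highest of both groups lacking Ing1, and both are among the arrays high in muscle transcripts; without the 3 such arrays the DKO difference was 0.83.

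**Figure D1:**
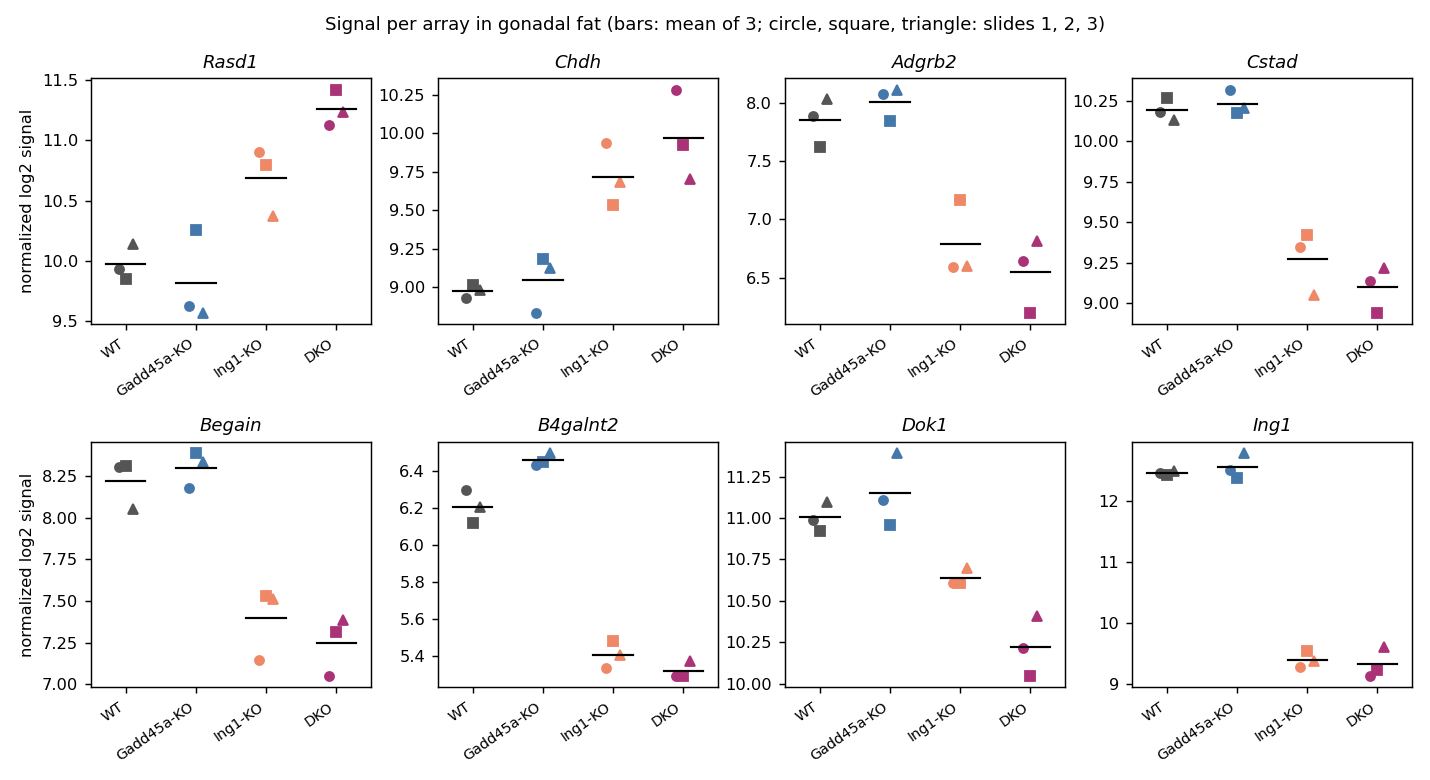
Normalized log2 signal (vertical axes, scaled separately) of the 7 genes and of Ing1 on each of the 12 arrays, by genotype; marker shapes give the slide and bars the mean of 3 arrays. Rasd1 and Chdh lie higher, and Adgrb2, Cstad, Begain, B4galnt2, Dok1 and Ing1 lower, on the 6 arrays of Ing1-KO and DKO, with no overlap with the 6 arrays of WT and Gadd45a-KO in any panel.

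The other 5 genes were lower without Ing1. Adgrb2, also called Bai2, encodes an adhesion G protein-coupled receptor best known from the brain. On its brightest probe it read 7.89, 7.62 and 8.04 in WT and 8.07, 7.84 and 8.12 in Gadd45a-KO, against 6.60, 7.16 and 6.60 in Ing1-KO and 6.64, 6.20 and 6.81 in DKO. The sets of 6 did not overlap, while Ing1-KO and DKO did, with Ing1-KO replicate 2 the highest and DKO replicate 2 the lowest of the arrays lacking Ing1. The log2 difference from WT was -1.06 ± 0.21 in Ing1-KO, 2.09-fold lower, and -1.30 ± 0.21 in DKO, 2.46-fold lower. With normexp background correction, which adds an offset of 50 to each signal, the DKO value was -0.85. Such an offset by itself shrinks log2 differences of dim probes, and its share was not tested.

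B4galnt2 encodes the transferase that adds N-acetylgalactosamine to sialylated sugar chains and so completes the Sda blood group antigen; in mice a promoter variant of this gene alters the clearance of von Willebrand factor. It read 6.30, 6.12 and 6.21 in WT and 6.44, 6.45 and 6.50 in Gadd45a-KO, against 5.33, 5.48 and 5.41 in Ing1-KO and 5.29, 5.29 and 5.38 in DKO. The replicates of each genotype lay close together, the sets of 6 did not overlap, and Gadd45a-KO lay above WT on all arrays. The log2 difference from WT was -0.80 ± 0.15 in Ing1-KO and -0.89 ± 0.15 in DKO, 1.74-fold and 1.85-fold lower. Its size and its call depend on the processing: the DKO difference was -0.34 with normexp correction and its offset, and -0.58 in the authors' values. The adjusted p from limma was then 0.0597 and 0.0617, so it passed in neither. It passed in DKO against WT in 7 of 25 alternative settings.

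Dok1 encodes a docking protein that binds RasGAP below tyrosine kinases and restrains signalling in blood cells, and that in mice has also been linked to the enlargement of fat cells on a high-fat diet. It read 10.99, 10.92 and 11.10 in WT and 11.11, 10.96 and 11.39 in Gadd45a-KO, against 10.61, 10.61 and 10.70 in Ing1-KO and 10.21, 10.05 and 10.41 in DKO. Here, as for Rasd1, the DKO arrays did not overlap the Ing1-KO arrays, and Ing1-KO stood between WT and DKO. The log2 difference from WT was -0.37 ± 0.13 in Ing1-KO, the smallest of the 7, and -0.78 ± 0.13 in DKO, 1.72-fold lower.

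Begain encodes a partner of the postsynaptic scaffold protein PSD-95. It read 8.30, 8.31 and 8.05 in WT and 8.18, 8.39 and 8.33 in Gadd45a-KO, against 7.14, 7.53 and 7.51 in Ing1-KO and 7.05, 7.31 and 7.38 in DKO. Replicate 1 was the lowest array of both groups lacking Ing1, and these groups overlapped each other but not the rest. The log2 difference from WT was -0.83 ± 0.16 in Ing1-KO and -0.97 ± 0.16 in DKO, 1.77-fold and 1.96-fold lower.

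Cstad takes its name from its dependence on T cell activation in the presence of cyclosporin A, the calcineurin inhibitor. It read 10.18, 10.26 and 10.13 in WT and 10.32, 10.17 and 10.20 in Gadd45a-KO, against 9.35, 9.42 and 9.05 in Ing1-KO and 9.14, 8.94 and 9.22 in DKO. The gap between the sets of 6, at 0.71, was the widest of the 7 genes. The log2 difference from WT was -0.92 ± 0.13 in Ing1-KO and -1.09 ± 0.13 in DKO, 1.89-fold and 2.14-fold lower.

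Against WT these values describe how the genes were chosen. All 7 of 7 passed in DKO against WT, where 0.162% of all genes did. The count was 0 of 7 without any 1 of WT replicate 1, WT replicate 3, Gadd45a-KO replicate 1, Gadd45a-KO replicate 2, DKO replicate 1 or DKO replicate 2, 1 of 7 without Ing1-KO replicate 2 or 3, and 3 of 7 without Ing1-KO replicate 1. The member nearest to the threshold was B4galnt2, with an adjusted p of 0.0438, and the first named gene outside it with the same sign in Ing1-KO was Aldh6a1, an enzyme of valine breakdown, with a log2 difference of 0.96 and an adjusted p of 0.0505. For Ing1-KO versus WT limma passed 0 of 7, where 0.00318% of all genes passed. In the same fit 7 of 7 and 2706 of all had an unadjusted p under 0.05. DKO did not overlap WT for any of the 7, against 22.3% of all genes without overlap, and Ing1-KO did not overlap WT for any of the 7, against 17.5%. The sets of 6 arrays with and without Ing1 were separate for 7 of 7, against 8.29% of all genes.

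**Figure D2:**
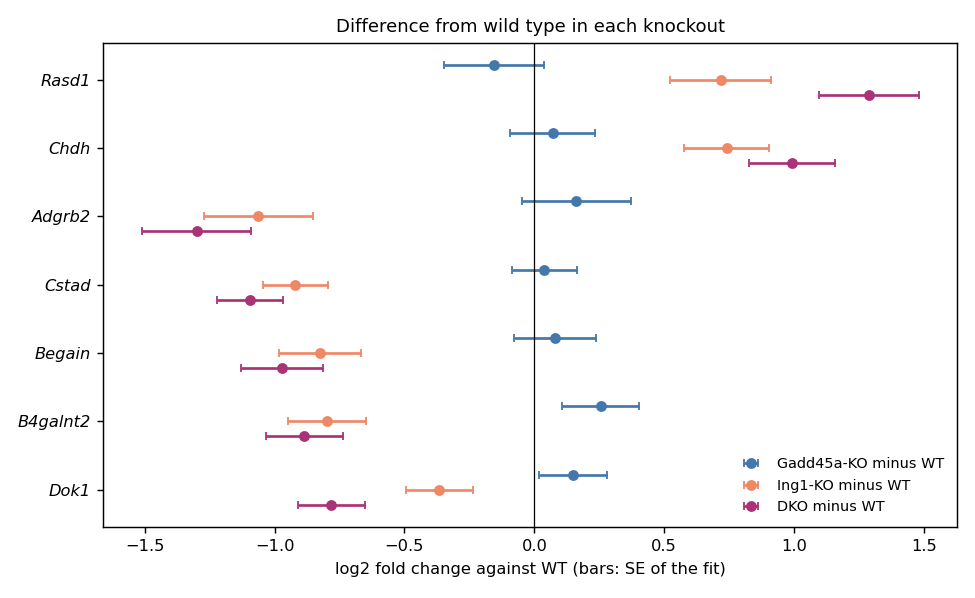
Log2 fold change against WT (horizontal axis) of each of the 7 genes in Gadd45a-KO, Ing1-KO and DKO, with the SE of the fit as bars. The Ing1-KO and DKO points lie on the same side of 0 for each gene, with Rasd1 at 0.72 and 1.29 and Dok1 at -0.37 and -0.78, while the Gadd45a-KO points lie between -0.16 and 0.25.

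The means of all 7 genes stood in the order WT, Ing1-KO, DKO, but how much of the DKO difference was already present in Ing1-KO differed between genes. It was 46.8% for Dok1 and 55.7% for Rasd1, 74.6% for Chdh, and 81.8%, 84.0%, 85.0% and 90.1% for Adgrb2, Cstad, Begain and B4galnt2. The genes were chosen for passing in DKO against WT, which by itself favours a DKO mean farther from WT than that of Ing1-KO, so the order and the shares are a description of the choice. The shares also use the same WT arrays in both terms and have no error of their own. The step from Ing1-KO to DKO, which compares mice that all lack Ing1, is touched by the same choice through the DKO arrays. It passed for 0 of 7 genes in limma, against 0.00318% of all genes; the 1 gene past the threshold was Gadd45a itself, and 2 of the 7 genes and 1103 of all had an unadjusted p under 0.05. These 2 were Rasd1, at 0.57 ± 0.19 with a 95% interval from 0.15 to 0.99, and Dok1, at -0.42 ± 0.13 with an interval from -0.70 to -0.13, both with an adjusted p of 0.948. Their arrays were also the only ones of the 7 genes that did not overlap between DKO and Ing1-KO; the figure over all genes, which were not chosen on the DKO arrays, was 8.89%, and nothing is read from the difference.

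For the other 5 genes the step from Ing1-KO to DKO was smaller, from -0.24 ± 0.21 for Adgrb2 to 0.25 ± 0.16 for Chdh, with adjusted p from 0.948 to 0.973. Their 95% intervals reached from -0.69 at the lower end, for Adgrb2, to 0.61 at the upper end, for Chdh. The interval for B4galnt2 was narrower, from -0.41 to 0.24. With 3 arrays per group, a further change inside a gene's own interval was not excluded. The interaction, which uses the DKO arrays as well and is the DKO minus Ing1-KO difference less the Gadd45a-KO minus WT difference, passed for 0 of 7 genes and for 0 of all genes in limma, with 2 of the 7 and 1866 of all at an unadjusted p under 0.05. It was 0.73 ± 0.27 for Rasd1 and -0.56 ± 0.18 for Dok1, each with an adjusted p of 0.728.

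Loss of Gadd45a alone, as labelled, was not accompanied by a detectable difference in any of the 7 genes. In Gadd45a-KO against WT limma passed 0 of 7 and 0 of all genes, with 0 of the 7 and 739 of all at an unadjusted p under 0.05; every adjusted p of the 7 was 0.9997. The log2 differences ran from -0.16 ± 0.19 for Rasd1 to 0.25 ± 0.15 for B4galnt2, and the 95% intervals from -0.58, the lower bound for Rasd1, to 0.62, the upper bound for Adgrb2. Only B4galnt2 had WT and Gadd45a-KO arrays without overlap, 1 of 7 genes against 8.13% of all genes. Its difference was 0.06 with normexp background correction and 0.09 in the authors' values. For 6 of the 7 genes the Gadd45a-KO mean lay on the other side of WT from the DKO mean. Chdh, at 0.07 ± 0.16, was the exception. Both differences use the same WT arrays and the share over all genes was not computed, so nothing is read from this count. The sign of the Gadd45a-KO difference changed in 3 of 25 alternative settings for Cstad and in 1 for Begain.

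Comparisons with the Gadd45a-KO arrays were not used to choose the genes, but they share the Ing1-KO and DKO arrays and the estimate of spread with those that were. In DKO against Gadd45a-KO, which asks what loss of Ing1 adds where Gadd45a is already missing, all 7 genes passed, 2 that rose and 5 that fell, where 15.0% of all genes passed, 6.49% as a rise and 8.47% as a fall. Rasd1 rose by 1.44 ± 0.19 on the log2 scale, 2.72-fold, with an adjusted p of 0.00601, and Chdh by 0.92 ± 0.16, 1.89-fold, with an adjusted p of 0.0113. Adgrb2 fell by 1.46 ± 0.21, 2.75-fold, with an adjusted p of 0.00768, B4galnt2 by 1.14 ± 0.15 and Cstad by 1.13 ± 0.13, with 0.00532 and 0.00311, Begain by 1.05 ± 0.16 with 0.00829 and Dok1 by 0.93 ± 0.13 with 0.00700.

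Each of these 7 calls held when any 1 of the 12 arrays was left out. Without the 3 arrays high in muscle transcripts, a fit on 9 arrays chosen after the data were seen, 0 of the 7 and 1 of all genes passed; directions were kept in all 7, with Chdh at 0.66 and an adjusted p of 0.0966, and Adgrb2, Begain and B4galnt2 at -1.47, -1.01 and -1.14, each with an adjusted p of 0.0961. With the array's column on the slide as a block 0 of the 7 and 3 of all genes passed, with adjusted p of the 7 from 0.110 to 0.119; the differences were 1.37 for Rasd1, 0.83 for Chdh, -1.46 for Adgrb2, -1.13 for Cstad, -0.83 for Begain, -1.11 for B4galnt2 and -0.94 for Dok1. Columns were uneven over genotypes, with DKO in columns 3, 3 and 2 and Gadd45a-KO in 2, 4 and 1. Column and genotype are thus partly confounded in the fit with the column as a block. B4galnt2 was -0.40 with normexp background correction.

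Gadd45a-KO against Ing1-KO sets the single knockouts against each other, and 4 of 7 genes passed, where 0.248% of all genes did. All 4 were higher in Gadd45a-KO, as were 0.191% of all genes: Adgrb2 by 1.22 ± 0.21 with an adjusted p of 0.0422, B4galnt2 by 1.05 ± 0.15 with 0.0244, Cstad by 0.96 ± 0.13 with 0.0199 and Begain by 0.91 ± 0.16 with 0.0429. Dok1 had 0.52 ± 0.13 with an adjusted p of 0.120, Rasd1 -0.87 ± 0.19 with 0.0868 and Chdh -0.67 ± 0.16 with 0.115, and these 3 did not pass. Cstad lay between 0.85 and 1.03 and Adgrb2 between 1.13 and 1.41 when single arrays were left out, but the calls changed: without any 1 of the 3 Gadd45a-KO arrays or any 1 of the 3 Ing1-KO arrays 0 of 7 passed, and 2 of 7 passed without WT replicate 1, WT replicate 3 or DKO replicate 1. In the fit without the 3 arrays high in muscle transcripts 0 of 7 passed.

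The 3 slides carry 1 array of every genotype. The DKO minus Gadd45a-KO difference was above 0 on each slide for Rasd1 and Chdh and below 0 for the other 5 genes. It was 1.50, 1.16 and 1.66 for Rasd1 on slides 1, 2 and 3, 1.45, 0.74 and 0.57 for Chdh, and between -1.16 and -1.12 on all slides for B4galnt2. Ing1-KO minus WT also kept its sign on all slides, with Rasd1 at 0.97, 0.95 and 0.23 and Adgrb2 at -1.30, -0.46 and -1.43. Neither pair of groups overlapped for any of the 7 genes, which fixes these signs, so they add no support. The DKO minus Ing1-KO difference had 1 sign on all slides for 5 of the 7 genes: Rasd1 at 0.22, 0.62 and 0.86, Dok1 at -0.40, -0.56 and -0.29, Chdh at 0.35, 0.39 and 0.02, Begain at -0.09, -0.22 and -0.13 and B4galnt2 at -0.04, -0.19 and -0.03. Adgrb2, at 0.05, -0.96 and 0.21, and Cstad, at -0.21, -0.48 and 0.17, had both signs. The share over all genes was not computed. The genes were chosen on the DKO arrays and the slides were not taken as pairs, so nothing is read from the count of 5.

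**Figure D3:**
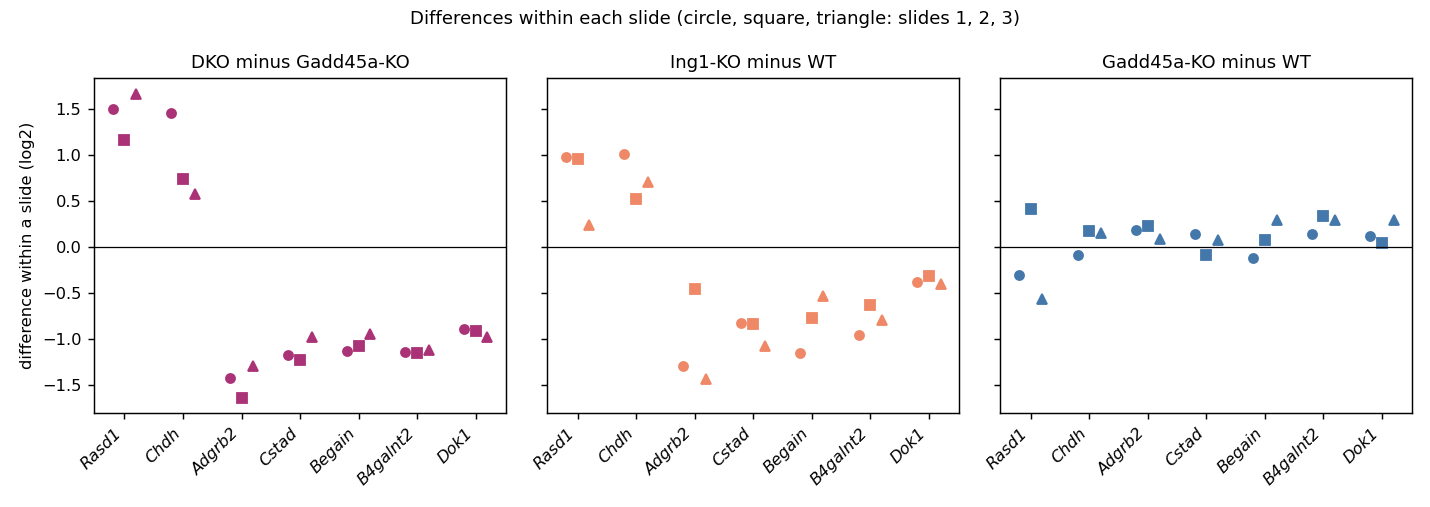
Difference in normalized log2 signal between 2 arrays of the same slide (vertical axis), for each of the 7 genes and each of 3 slides, in DKO minus Gadd45a-KO, Ing1-KO minus WT and Gadd45a-KO minus WT. In the first panel Rasd1 lies between 1.16 and 1.66 and Chdh between 0.57 and 1.45, and the other 5 genes lie below 0 on every slide.

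The other 2 probes of Chdh leaned the same way as the brightest one, with less precision. The second Chdh probe, A_52_P432570, read 7.57, 7.71 and 7.28 in WT, 7.44, 7.52 and 7.33 in Gadd45a-KO, 8.55, 7.80 and 7.92 in Ing1-KO and 8.86, 8.56 and 7.92 in DKO, and its sets of 6 did not overlap. The third, A_55_P2151817, had WT between 4.67 and 5.21 and DKO between 5.33 and 6.41, with 1 DKO array below the highest Gadd45a-KO array. With every probe tested, the second rose by 1.02 ± 0.25 in DKO against Gadd45a-KO with an adjusted p of 0.0247, and the third had 0.77 ± 0.29 with 0.0896.

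The second Adgrb2 probe, A_55_P2110725, was well above background on 2 WT, 3 Gadd45a-KO, 1 Ing1-KO and 0 DKO arrays. It read 4.58, 4.64 and 4.67 in WT and 5.16, 4.71 and 4.78 in Gadd45a-KO against 3.73, 2.44 and 3.58 in DKO, so that WT was at least 1.39-fold and Gadd45a-KO at least 1.66-fold higher, taking for each DKO array the higher of its own signal and the lowest signal above background. This probe passed the filter mainly through the groups where it is high, so no test of it is given.

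**Figure D4:**
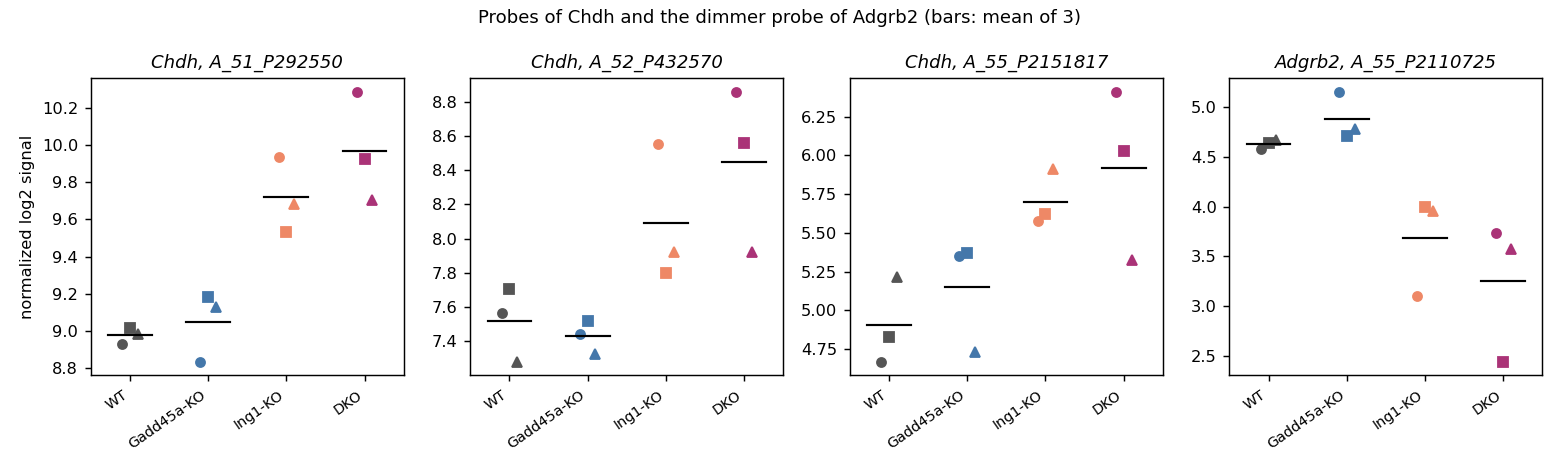
Normalized log2 signal per array (vertical axes, scaled separately) of the 3 Chdh probes and of the dimmer Adgrb2 probe, by genotype, with bars at the mean of 3. DKO lies between 9.70 and 10.28 on the brightest Chdh probe and between 5.33 and 6.41 on the dimmest, and the DKO arrays of the Adgrb2 probe, between 2.44 and 3.73, were not well above background.

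Across the 12 arrays the 7 genes followed each other, with Pearson's r between 0.86 and 0.96 in size over the 21 pairs; this is a description, since the arrays fall into genotype groups and the genes were chosen on them. Taken as deviations from the genotype means, the same pairs had r from -0.54, for Chdh and Begain, to 0.68, for Adgrb2 and B4galnt2, with a median size of 0.19. Adgrb2 also followed Dok1 and Cstad within genotypes, at 0.58 and 0.57, and Rasd1 went against Dok1 at -0.53.

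**Figure D5:**
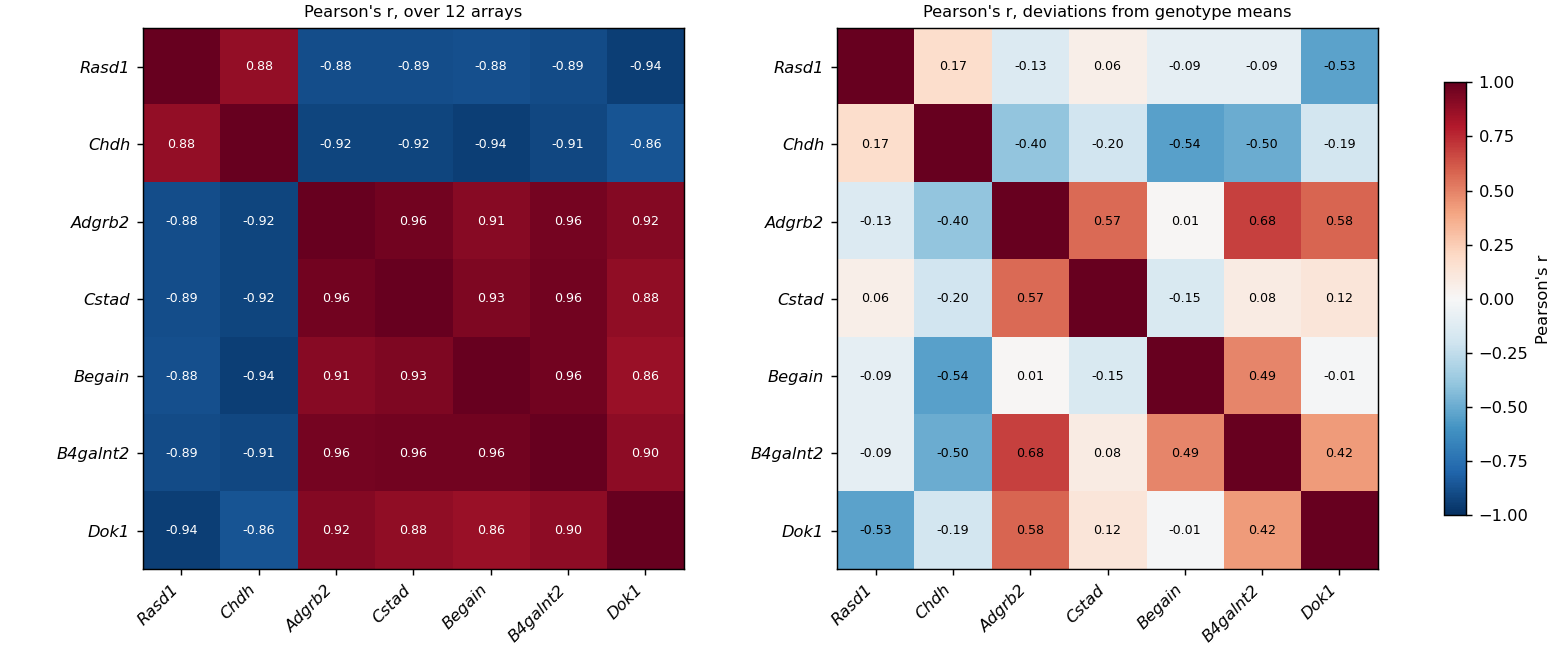
Pearson's r between the 7 genes over 12 arrays, from the normalized log2 signals (first panel) and from deviations from the genotype means (second panel). The first panel shows r between 0.86 and 0.96 in size, negative between Rasd1 or Chdh and the other 5 genes; the second lies between -0.54 and 0.68.

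The named genes whose 12 values were most like those of each member, by Pearson's r, are given by rank. For Cstad and B4galnt2 the closest was Ing1 itself, at 0.98 for each, followed by the lens crystallin gene Cryba4 (0.97) for Cstad and the nucleoside diphosphate kinase gene Nme4 for both, at 0.96 and 0.98. B4galnt2 was also close to Tnfrsf11a, which encodes the receptor RANK (0.98). Adgrb2 was closest to Smg9, a factor of nonsense-mediated decay (0.98), Celf5, an RNA-binding protein (0.98), and Cryba4 (0.98). Begain was closest to AA414768 (0.99), the growth factor gene Mdk (0.98) and Rasd2 (0.97). Dok1 was closest to the helix-loop-helix factor gene Tcf3 (0.98), the glutathione peroxidase gene Gpx2 (0.97) and Amz1 (0.96). Chdh followed Tm2d1, Zfp106 and Sowahc at 0.96 each, and Rasd1 followed the mitochondrial carrier gene Slc25a16 (0.95), Zfp982 (0.94) and Rmc1 (0.94). These are the highest of 15954 named genes over 12 arrays that share genotype groups.

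Genes with roles near those of Rasd1 and Chdh were measured from lists written with earlier results of these data known. Against WT, in each of the 3 knockouts, 0 genes passed in any of the 9 pathway lists, and in DKO against WT the list medians lay between -0.21 and 0.15 on the log2 scale where that of all genes was -0.04. For all the lists below, the counts in DKO against Gadd45a-KO stand beside the 15.0% of all genes that passed there, 6.49% as a rise and 8.47% as a fall. The 9 pathway lists held 47 calls in that comparison; without the 3 arrays high in muscle transcripts 0 of the 47 passed, with adjusted p of 0.0961 or more, and 47 kept their sign. In DKO against Gadd45a-KO 2 of 20 glucocorticoid-induced genes rose and 3 fell, among them the transcription factor Klf15, which rose by 0.93 ± 0.20 with an adjusted p of 0.0178; the receptor gene Nr3c1 had 0.32 ± 0.12 with 0.0927. Of 23 measured small GTPases near Rasd1, 1 rose and 2 fell, no larger a share than the 15.0% of all genes. Rasl12 rose by 0.99 ± 0.25 with an adjusted p of 0.0282, while Rasd2, also called Rhes and the closest relative of Rasd1, fell by 0.89 ± 0.16 with 0.0119, opposite to Rasd1. Of 28 genes of choline, betaine and methyl group metabolism, 6 rose and 1 fell, with a median of 0.13 against -0.03 over all genes. Chpt1, which makes phosphatidylcholine, rose by 1.07 ± 0.19 with an adjusted p of 0.0119, and the mitochondrial folate carrier Slc25a32 by 0.53 ± 0.13 with 0.0234.

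The families of the genes that were lower without Ing1 were mixed in the same comparison, where 6.49% of all genes rose and 8.47% fell. Of 21 measured adhesion G protein-coupled receptors other than Adgrb2, 3 rose and 6 fell, with a median of -0.32; Adgrg3 fell by 1.36 ± 0.17 with an adjusted p of 0.00474 and the planar polarity cadherin Celsr1 by 1.18 ± 0.19 with 0.00908. Adgrg3 was also the 1 gene of this list that passed in Gadd45a-KO against Ing1-KO, where it was higher by 1.19 ± 0.17 with an adjusted p of 0.0232 (0.359 without the 3 arrays high in muscle transcripts). Of 22 N-acetylgalactosaminyl and sialyl transferases, 0 rose and 6 fell, among them the ganglioside enzymes B3galt4, by 0.57 ± 0.15 with an adjusted p of 0.0281, and B4galnt1, by 1.00 ± 0.29 with 0.0399. Of 25 Dok adaptors and signalling partners, 3 rose and 7 fell; Dok3, a relative of Dok1 known from B cells and myeloid cells, fell by 0.97 ± 0.23 with an adjusted p of 0.0223, and the insulin receptor substrate Irs1 rose by 0.79 ± 0.21 with 0.0330.

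The lists for Begain and Cstad were called at a share near or below the 15.0% of all genes. For Begain, 0 of 18 measured postsynaptic scaffold genes rose and 1 fell, Dlgap3, by 1.00 ± 0.19 with an adjusted p of 0.0125; Dlg4, which encodes PSD-95 itself, had -0.48 ± 0.23 with 0.162. Among 13 measured genes of the Dlk1-Dio3 region and its surroundings on chromosome 12, 1 rose and 1 fell, the actin regulator Evl, by 0.93 ± 0.25 with an adjusted p of 0.0315. For Cstad, 1 of 23 genes of the calcineurin and NFAT pathway rose and 3 fell: the calcineurin inhibitor gene Rcan1 rose by 0.82 ± 0.22 with an adjusted p of 0.0311, and Cabin1, another calcineurin inhibitor, had -0.33 ± 0.10 with 0.0530.

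The 7 genes lie on chromosomes 11 (Rasd1 and B4galnt2), 14 (Chdh), 4 (Adgrb2), 2 (Cstad), 12 (Begain) and 6 (Dok1). Ing1 lies on chromosome 8, and Gadd45a on chromosome 6 with Dok1. The nearest measured named gene on either side of each member, 14 in all, passed in neither comparison of DKO or Ing1-KO with WT. Of all genes only 0.162% and 0.00318% passed there, so nothing is read from this. In DKO against Gadd45a-KO 2 of the 14 passed, a share near the 15.0% of all genes, and 0 without the 3 arrays high in muscle transcripts: Cacna1d, a calcium channel gene beside Chdh, fell by 1.04 ± 0.32 with an adjusted p of 0.0493 while Chdh rose, and M1ap, beside Dok1, fell by 1.02 ± 0.27 with 0.0313. The neighbours of Rasd1, Med9 and Pemt, had 0.42 ± 0.19 and 0.58 ± 0.21, and those of Begain, Wdr25 and the imprinted gene Dlk1, 0.12 ± 0.19 and 0.40 ± 0.26.

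Markers of several cell types differed between DKO and Gadd45a-KO, where 6.49% of all genes rose and 8.47% fell, and in whole fat fewer cells of a type and less RNA per cell cannot be told apart. The 11 marker lists held 58 calls in this comparison; without the 3 arrays high in muscle transcripts 0 of the 58 passed and 58 kept their sign, and the list medians were then -1.21 for T cells, -0.74 for macrophages and monocytes, -1.28 for neutrophils and mast cells and 0.80 for white adipocytes. Of 20 T cell markers 19 were measured, and 17 of these fell in DKO against Gadd45a-KO with a median of -1.07, for example Cd3e by 1.01 ± 0.24 and Thy1 by 0.86 ± 0.19, with adjusted p of 0.0239 and 0.0187. In DKO against WT 0 of the 19 passed, at a median of -0.87. The log2 of their summed level lay between 17.00 and 17.38 in WT, 17.22 and 17.60 in Gadd45a-KO, 16.49 and 17.11 in Ing1-KO and 15.70 and 16.85 in DKO. As deviations from genotype means over the 12 arrays, the mean of this list had r of 0.88 with Adgrb2, 0.74 with Dok1, 0.60 with B4galnt2, 0.42 with Cstad and 0.14 with Begain. Their part in the results for these genes was not tested.

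Of 16 measured macrophage and monocyte markers, 9 fell in DKO against Gadd45a-KO and 1, Cx3cr1, in DKO against WT, by 0.95 ± 0.15 with an adjusted p of 0.0383 (0.271 without the 3 arrays); Ctss had -0.94 ± 0.23 with 0.0765. Their summed log2 level lay between 16.57 and 16.86 in WT and between 16.01 and 16.34 in DKO, and within genotypes r was 0.47 with B4galnt2, -0.10 with Adgrb2 and -0.01 with Dok1. Beside the 8.47% of all genes that fell, of 12 B cell markers 4 fell and 0 rose in DKO against Gadd45a-KO, and the list's r within genotypes was 0.69 with Adgrb2 and 0.67 with Dok1. Of 14 measured neutrophil and mast cell markers 7 fell in that comparison, and their summed log2 level lay between 13.53 and 15.63 in Gadd45a-KO and between 12.19 and 13.13 in DKO. Within genotypes their r was -0.49 with Adgrb2, -0.54 with Dok1 and -0.33 with B4galnt2. It was -0.18 with Chdh, -0.11 with Begain, 0.13 with Cstad and 0.17 with Rasd1. The part of these cells was not tested.

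Fat cell markers went the other way. Of 20 white adipocyte markers, all measured, 11 rose and 0 fell in DKO against Gadd45a-KO with a median of 0.79, for example Lep by 1.34 ± 0.24 and Cd36 by 0.97 ± 0.18, with adjusted p of 0.0115 and 0.0127, and 0 passed in DKO against WT at a median of 0.48. Their summed log2 level lay between 20.29 and 20.93 in WT, 20.19 and 20.46 in Gadd45a-KO, 20.53 and 20.73 in Ing1-KO and 20.58 and 21.08 in DKO. Within genotypes this list had r of 0.40 with Chdh, -0.14 with Rasd1, 0.10 with Cstad and -0.35 with Begain. It had -0.56 with Adgrb2, -0.59 with Dok1 and -0.78 with B4galnt2, and its part in the results was not tested. Skeletal muscle markers ran from 10.85 to 11.15 in WT and from 10.67 to 15.05 in Ing1-KO in summed log2 level, with r within genotypes of -0.86 for Begain and 0.58 for Chdh; without the 3 arrays highest in them DKO against WT was -0.87 for Begain and 0.83 for Chdh.

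Of 14 measured Schwann cell and neuron markers, 5 rose and 2 fell in DKO against Gadd45a-KO, where 6.49% and 8.47% of all genes did, with Cdh19 at 1.63 ± 0.22 and Nefh at -1.56 ± 0.28, while Nefl and Nefm were not well above background. Begain and Adgrb2, best known from neurons, had r within genotypes of 0.44 and -0.09 with this list. Endothelial markers (12 measured) had 1 that rose, with r within genotypes of -0.72 with Adgrb2, -0.66 with Dok1 and -0.56 with B4galnt2, and progenitor and fibroblast markers (12 measured) 0. The mesothelial markers Msln, Upk3b, Upk1b, Wt1 and Bnc1 were not well above background, nor were 13 of 17 markers of epididymis and sperm, tissues that adjoin gonadal fat; of the measured ones 1 of 6 mesothelial markers rose and 1 of 4 of the others fell.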

How the data were processed

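Total RNA of gonadal white fat was pooled from 3 mice per array and hybridized to 12 one-colour Agilent arrays. The deposited scanner files hold intensity values, per the file headers from Feature Extraction 10.7.3.1: a processed signal with the background subtracted and no scaling between arrays. The deposited series table holds log2 values, for which the submitters' processing notes name limma 3.26.9; its further steps are not given in the sources used here, and it served as an alternative.

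Spots with an outlier or control mark were dropped, log2 processed signals were averaged per probe and shifted to a common 75th percentile, and a probe had to be well above background on 3 or more of 12 arrays; the brightest such probe stands for its gene. Of 29150 probes with a RefSeq accession, 27509 were named through the GRCm38.p6 table. All 7 genes passed this filter, each main probe on 12 of 12 arrays. All 12 arrays entered a linear model of 4 genotype means (limma 3.58.1, R 4.3.3; 8 residual degrees of freedom, intensity trend, robust empirical Bayes); tests are two-sided, adjusted by Benjamini-Hochberg over 31453 features at a threshold of 0.05. The pools hold separate animals. The replicate number equals slide and scan; its 18 same-numbered pairs of arrays had correlations from -0.28 to 0.42, 9 of them over 0.1, so numbers were not taken as pairs.

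Members, gene lists and the rule for named genes were chosen with earlier results of these data known. Named are the 7 genes, Ing1 and Gadd45a, the 2 genes of each list with the smallest p in DKO against WT and any past the threshold against WT, the 3 genes most like each member, the neighbours and the genes at the threshold. Alternatives were other scalings, background correction, filters, probes, variance models, blocks, each array left out and, added after seeing the data, a fit without the 3 arrays highest in muscle transcripts.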

Additional observations from a re-analysis of the deposited data

How the results depend on the processing

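The 7 genes kept the direction of their DKO against WT, Ing1-KO against WT and DKO against Gadd45a-KO differences in all 25 alternatives, while the counts of calls moved. In DKO against WT, where 7 of 7 passed, 2 passed with no filter and with plain empirical Bayes, 1 with the array row as a block, and 0 with only the arrays compared, with the array column as a block and without the 3 arrays high in muscle transcripts; leaving out single arrays gave 0 to 7. In Gadd45a-KO against Ing1-KO, where 4 passed, 2 did with centring on the median and with plain empirical Bayes, 1 with the array row and 0 with the array column as a block or without the arrays high in muscle transcripts; leaving out single arrays gave 0 to 4. In DKO against Gadd45a-KO, where 7 passed, 0 did with the array column as a block or without those arrays, and leaving out single arrays gave 7 each time. In Ing1-KO against WT, where 0 passed, 1 did with quantile normalization, with every probe tested and without DKO replicate 2, and leaving out single arrays gave 0 to 1. With the replicate number, which is the slide, as a block, 7, 3 and 7 members passed in DKO against WT, Gadd45a-KO against Ing1-KO and DKO against Gadd45a-KO; the numbers were not shown to pair the arrays. Over all genes, DKO against WT had 51 calls, 653 with this block, 130 with normexp, 119 in the authors' values, and 1 to 3307 when single arrays were left out. Gadd45a-KO against Ing1-KO had 78 calls, 29 with median centring, 444 with only the arrays compared and 1 to 238 without single arrays, and DKO against Gadd45a-KO 4704, with 502 for only the arrays compared and 539 to 7065 without single arrays. Centring on the median made 45 of 63, 19 of 29 and 2507 of 4246 calls higher in these 3 comparisons, against 26 of 51, 60 of 78 and 2040 of 4704. The causes of these shifts were not tested. Normexp correction, with its offset of 50, changed sizes most for the members with the dimmest main probes. With normexp the DKO against WT difference was -0.34 for B4galnt2, -0.85 for Adgrb2 and -0.69 for Begain, against -0.89, -1.30 and -0.97. For Rasd1, Chdh, Cstad and Dok1 it was 1.16, 0.91, -0.99 and -0.74, against 1.29, 0.99, -1.09 and -0.78. The second Adgrb2 probe was dim and was not fitted with normexp.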
